A study of Mus musculus with 12 samples.

Results

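Genes for the proteins of the cytosolic ribosome were examined across 2 layers of 2 hippocampal regions of the mouse. Members were taken by symbol from the platform annotation: features with a single symbol that begins with Rpl or Rps and a digit, plus Rplp0 and Rpsa, without Rps6k kinases, Rps19bp1 and symbols that mark a pseudogene with -ps. Where a symbol had more than 1 feature, the brightest was kept. This gave 44 of 30142 genes, 25 named for the large subunit and 19 for the small subunit. Of these, 33 encode standard ribosomal proteins (18 large, 15 small), and 11 are paralogs or copies, most with an l in the symbol, of which 3 (Rpl6l, Rps3a2 and Rps3a3) are pseudogenes in RefSeq. The 33 are fewer than the 77 standard genes listed for the comparison. Another 37, among them Rplp1, Rplp2 and Rps6, share every feature with a second symbol and are described only as a group, and the others were not analysed here.

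The samples were laser-captured from frozen brain sections of 3 male mice aged 6 to 8 weeks, from separate litters, of the strain labelled Amigo2-GFP C57BL/6J, which carries a fluorescent reporter and received no other treatment. The 4 groups, with 3 arrays each, were the CA1 cell body layer (stratum pyramidale), the CA1 dendritic layer (stratum radiatum), the CA2 cell body layer and the CA2 dendritic layer, and all 4 share the strain, the age and the sex. The labels do not tie an array to a mouse, so p-values measure the spread between arrays. All CA1 arrays carry run number 938 and all CA2 arrays run number 907. A region therefore cannot be told apart from its run, whereas both layers of a region share a run. Values are deposited log2 intensities on which a step of 1 is a doubling, and a layer difference is the dendritic minus the cell body value of the same region.

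The ribosome joins amino acids on a small subunit that reads the mRNA and a large subunit that forms the peptide bond and holds the exit tunnel. Most ribosomal protein mRNAs begin with a terminal oligopyrimidine (TOP) tract, through which mTOR and the binding protein Larp1 set how strongly they are translated. New ribosomal proteins travel to the nucleolus, where subunits are assembled around rRNA made by RNA polymerase I. In neurons, ribosomes and mRNAs of ribosomal proteins are also found in dendrites and axons, and stratum radiatum contains glia, vessels and interneurons beside the dendrites of pyramidal cells.

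The arrays separated the layers as labelled. All 14 astrocyte, 13 microglia, 12 endothelial and 11 oligodendrocyte markers measured were higher in the dendritic layer of both regions (adjusted p under 0.05). So were 8 of 10 interneuron markers in CA1, where Pvalb was called lower (-0.57), and 7 of 10 in CA2. Lower in the dendritic layer were 8 of 9 pyramidal markers in CA1 and 9 of 9 in CA2. The summed level of the astrocyte markers ranged from 12.33 to 12.41 in the CA1 cell body layer and from 14.39 to 14.43 in the CA1 dendritic layer, and from 12.49 to 12.52 and from 14.43 to 14.53 in CA2. That of the microglia markers went from 10.76 to 10.82 up to 13.13 to 13.24 in CA1 and from 10.85 to 10.93 up to 12.86 to 12.95 in CA2. That of the endothelial markers went from 10.38 to 10.49 up to 12.61 to 12.74 and from 10.79 to 10.89 up to 13.04 to 13.12, and that of the oligodendrocyte markers from 10.67 to 10.84 up to 11.96 to 12.17 and from 11.20 to 11.31 up to 12.43 to 12.63. That of the pyramidal markers fell from between 13.96 and 14.01 to between 12.15 and 12.30 in CA1 and from between 13.81 and 13.84 to between 11.54 and 11.82 in CA2. The CA2 marker Pcp4 was 3.79 higher and the CA1 marker Wfs1 differed by -2.72 in the CA2 against the CA1 cell body layer. These were the extremes of 10 CA1 and CA2 markers, of which 6 were called higher and 3 lower there. In the dendritic layer 3 of the 10 were called higher in CA2 and 3 lower. Against their label as male brain, CA2 cell body array 1 and CA2 dendritic arrays 2 and 3 carried oocyte transcripts, with a mean over 16 oocyte genes of 7.06, 7.20 and 7.11 where the other arrays read 5.19 to 5.56, and the counts of calls that involve CA2 are also given without these 3 arrays, as are the named calls that are then lost.

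Ribosomal protein mRNAs were higher in the dendritic than in the cell body layer. In CA1 all 33 standard ribosomal protein genes passed the test upward, with a median difference of 0.51 and a range from 0.20 for Rpl7 to 1.31 for Rpsa, and in each of the 33 the 3 dendritic arrays lay above the 3 cell body arrays. In CA2, 32 of 33 passed upward with a median of 0.54, and the groups were apart in the same direction in 32. Over all 30142 genes 28.3% were called higher in CA1 and 16.2% in CA2, and 34.7% and 21.7% had groups apart in this direction. The median difference over all genes was 0.12 in CA1 and -0.03 in CA2. Under median centring of each array, which moved the CA1 median of all genes to -0.03, the 33 kept positive differences in both regions and 28 and 31 were called. Under quantile normalization 28 were called in each region, and the CA2 differences of Rpl4 and Rps3a1 turned to -0.01. In dissected tissue, fewer cells of a type and less RNA per cell cannot be told apart, and the part of the markers above in these differences was not tested.

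The level of a gene on the array bears on this background. Of the 33 genes, 28 were in the brightest 20% of all genes, where 27.1% were called higher in the dendritic layer of CA1 and 46.6% lower, and in CA2 27.9% and 41.1%. Of the brightest 1%, 301 genes, 68 had a ribosomal protein symbol, 11 of them standard members. Among the other 233 genes of that brightest 1%, 47.6% were called higher in CA1 and 54.1% in CA2. In the deposited values between 217 and 264 genes exceeded a log2 value of 12 in the dendritic arrays and between 102 and 149 in the cell body arrays. Across the 33 genes, the layer difference had a correlation of 0.257 (Spearman 0.288) with the mean level in CA1 and 0.427 (0.407) in CA2, over points that share the same 12 arrays.

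**Figure D1:**
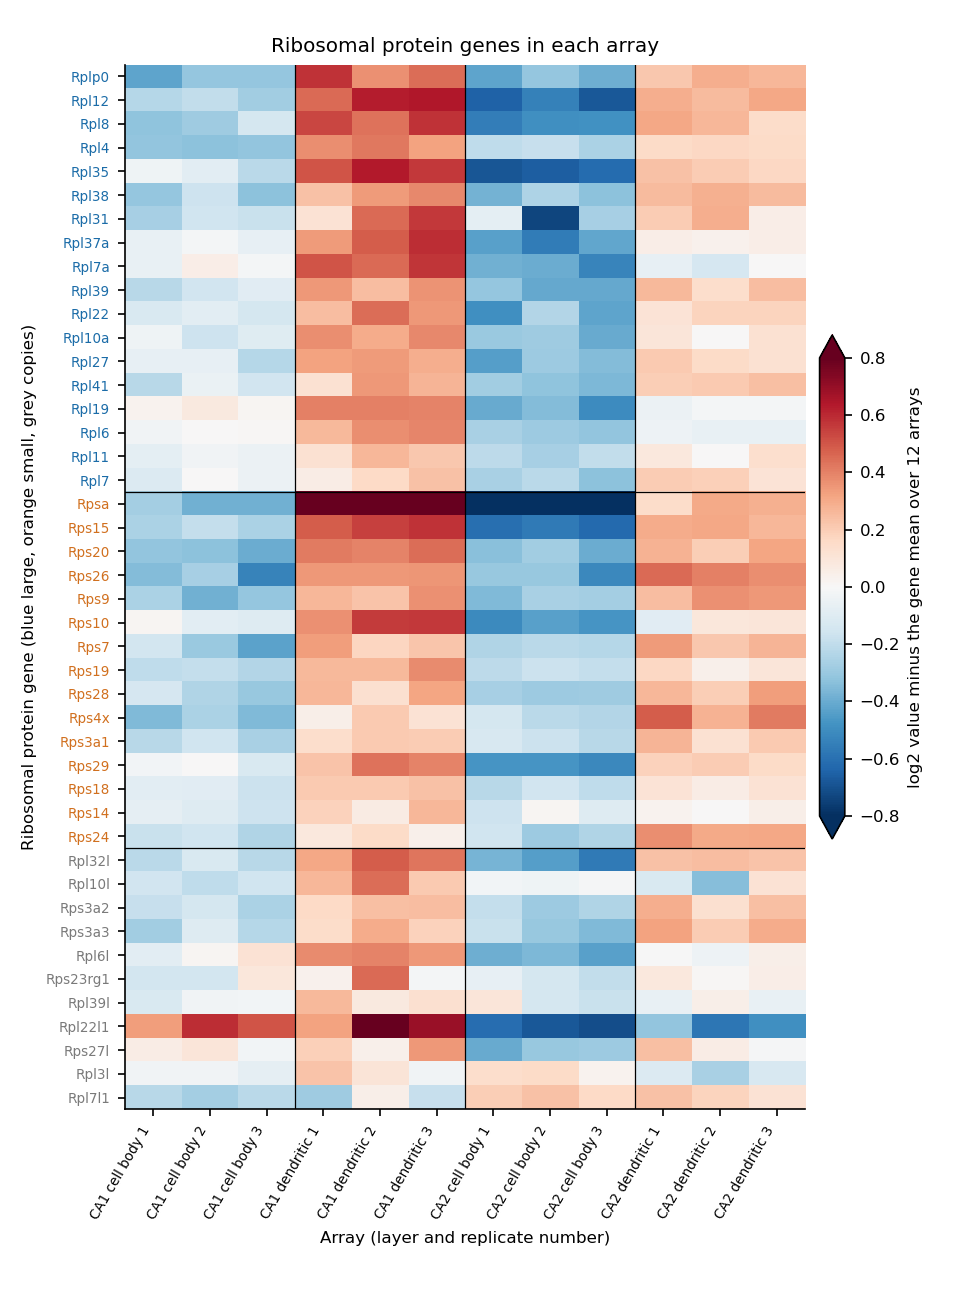
Heat map of the 44 genes (rows; blue names large subunit, orange small subunit, grey copies, each ordered by the CA1 layer difference) in the 12 arrays (columns); colour is the log2 value minus the mean of the gene over 12 arrays, with values beyond 0.8 in either direction drawn in the end colour. The median deviation of the 33 standard genes was 0.32 to 0.38 in the CA1 dendritic arrays and -0.36 to -0.29 in the CA2 cell body arrays.

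Within a group the arrays were close. The median SD over the 33 genes was between 0.0458 in the CA2 dendritic layer and 0.0709 in the CA1 dendritic layer, against 0.0721 to 0.129 over all genes. The median of the 33 genes, as a deviation from the mean of each gene, was 0.32 to 0.38 in the CA1 dendritic arrays, 0.16 to 0.20 in the CA2 dendritic arrays, -0.22 to -0.16 in the CA1 cell body arrays and -0.36 to -0.29 in the CA2 cell body arrays. These 4 ranges do not overlap and follow layer first and region second. Layer took up 79% of the sum of squares of the 33 genes, region with run 16.3%, the combination of layer and region 1.2%, and the rest within groups 2.75%. For all genes the shares were 57.9%, 19.8%, 7.54% and 11.6%.

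Sequences before and just after the start of the gene were read for members that share this direction, from RefSeq promoters of build GRCm38.p6, which held 28 of the 33 standard genes and 36 of the 44 members. The 7 letters CCGGAAG, the core of ETS-family sites, or their reverse complement CTTCCGG were present between 250 bases before and 50 after the start in 14 of 28 standard genes (50%) and in 9.93% of 27025 genes. These were Rpl11, Rpl19, Rpl31, Rpl35, Rpl38, Rpl39, Rpl41, Rpl6, Rps10, Rps18, Rps26, Rps3a1, Rps7 and Rpsa. The pyrimidine stretch CTTTCC, read on both strands, was in 57.1% of the 28 and 29.3% of all genes, and CCTTTC, which can overlap it, in 42.9% and 26.5%. CTTTTC was in 28.6% of the 28 against 24.3% of all genes, the GC-box core GGGCGG in 53.6% against 38.2%, and AAGATGG, the core of YY1 sites, in 14.3% against 7.28%. In the narrower window of 50 bases on either side of the start, the shares were 32.1% against 5.98% for CCGGAAG, 39.3% against 10.3% for CTTTCC, 25% against 9.16% for CCTTTC, 25% against 7.99% for CTTTTC, 28.6% against 24.2% for GGGCGG and 7.14% against 3.07% for AAGATGG. A run of at least 5 pyrimidines that opens with C at the first transcribed base was found in 4 of 28 (14.3%) and in 3.01% of all genes. The run was read only at starts listed in RefSeq, so a tract that opens some bases away from them was not counted. Each stretch below covers 90 bases before the start and the first 30 transcribed bases, with CCGGAAG or its reverse complement in capitals. Rpl38 (plus strand, chr11:114668490-114668609), Rps10 (minus strand, chr17:27635215-27635334) and Rps7 (minus strand, chr12:28635924-28636043) hold these letters close to the start, at positions -20, -29 and -14 counted from it. They were picked, with Rpl31, for the largest CA1 layer differences among standard genes with these letters in such a stretch. Rpl31 holds them at position 9 after the start and is not printed. Rpsa (plus strand, chr9:120127676-120127795) is shown as the gene with the largest layer difference; its match lies outside the stretch. Rpl22 (plus strand, chr4:152325636-152325755) and Rpl22l1 (plus strand, chr3:28805418-28805537) are a paralog pair that differs between regions.
Rpl38: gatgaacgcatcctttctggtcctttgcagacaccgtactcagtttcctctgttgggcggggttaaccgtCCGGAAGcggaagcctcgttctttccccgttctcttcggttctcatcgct
Rps10: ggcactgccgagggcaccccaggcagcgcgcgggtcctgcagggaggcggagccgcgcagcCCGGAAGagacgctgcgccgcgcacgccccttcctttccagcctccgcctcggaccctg
Rps7: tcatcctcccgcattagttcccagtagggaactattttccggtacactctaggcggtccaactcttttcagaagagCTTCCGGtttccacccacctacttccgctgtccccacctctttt
Rpsa: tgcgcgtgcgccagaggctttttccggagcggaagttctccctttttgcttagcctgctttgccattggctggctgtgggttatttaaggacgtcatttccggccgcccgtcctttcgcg
Rpl22: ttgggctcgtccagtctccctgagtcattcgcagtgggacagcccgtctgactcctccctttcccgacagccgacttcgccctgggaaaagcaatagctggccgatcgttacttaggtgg
Rpl22l1: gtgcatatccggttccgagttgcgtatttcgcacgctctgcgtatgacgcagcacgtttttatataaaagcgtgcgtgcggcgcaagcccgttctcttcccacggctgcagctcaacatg
A match is a description of letters and says nothing about which factor was bound in these cells.

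Rpsa stood apart among the members. It encodes a small subunit protein that is also known as the laminin receptor precursor. Rpsa read 9.38, 9.27 and 9.27 in the CA1 cell body arrays, 10.59, 10.64 and 10.61 in the CA1 dendritic arrays, 8.79, 8.81 and 8.79 in the CA2 cell body arrays and 9.80, 9.96 and 9.94 in the CA2 dendritic arrays. The 4 groups did not overlap, in the order CA1 dendritic, CA2 dendritic, CA1 cell body and CA2 cell body from high to low. The layer difference was 1.31 ± 0.07 (SE, adjusted p = 2.6e-07) in CA1 and 1.10 ± 0.07 (adjusted p = 6.8e-07) in CA2, and Rpsa was the only member that reached a doubling in either region. The difference between the regions, -0.20 ± 0.10 (adjusted p = 0.174), did not pass. Of the 8 features named as copies of this gene, all were called higher in CA1, from 0.32 for Rpsa-ps3 to 1.74 for Rpsa-ps2. In CA2 5 were called higher, up to 1.33 for Rpsa-ps2, and Rpsa-ps3 at 0.04, Rpsa-ps5 at 0.27 and Rpsa-ps11 at 0.31 did not pass (adjusted p = 0.701, 0.162 and 0.0518). A feature of one copy may also take up RNA of another, and the probe sequences were not used here.

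The base of the stalk that recruits elongation factors is formed by Rplp0 with Rpl12 beside it, and both were among the large subunit genes with the widest layer difference. Rplp0 read 9.09, 9.20 and 9.20 in the CA1 cell body layer and 10.09, 9.88 and 9.96 in the CA1 dendritic layer, against 9.09, 9.20 and 9.12 and then 9.73, 9.80 and 9.78 in CA2. The cell body arrays of both regions overlapped and all dendritic arrays were higher, by 0.81 ± 0.07 in CA1 (adjusted p = 1.2e-05) and 0.63 ± 0.07 in CA2 (adjusted p = 7.1e-05). Rpl12 read 11.30, 11.33 and 11.25 in the CA1 cell body layer, 11.98, 12.16 and 12.17 in the CA1 dendritic layer, 10.88, 10.99 and 10.85 in the CA2 cell body layer and 11.82, 11.78 and 11.84 in the CA2 dendritic layer. Its layer difference was 0.81 ± 0.07 in CA1 (adjusted p = 8.1e-06) and 0.91 ± 0.07 in CA2 (adjusted p = 3.6e-06). The Rpl12 feature is coded to another chromosome than the gene in RefSeq, a point taken up with the copies.

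All 18 large subunit genes were called higher in the dendritic layer of both regions, with medians of 0.50 in CA1 and 0.53 in CA2. Rpl8, which lies at the peptide-bond-forming centre, differed by 0.77 ± 0.08 and 0.75 ± 0.08. Rpl35, at the mouth of the exit tunnel, read 11.82, 11.77 and 11.64 in the CA1 cell body layer, 12.36, 12.49 and 12.42 in the CA1 dendritic layer, 11.17, 11.20 and 11.24 in the CA2 cell body layer and 12.09, 12.06 and 12.02 in the CA2 dendritic layer. Its 4 groups did not overlap, and the layer differences were 0.68 ± 0.07 (adjusted p = 2.3e-05) and 0.85 ± 0.07 (adjusted p = 4.7e-06). Rpl38, studied for its part in the translation of Hox mRNAs, was higher by 0.59 ± 0.06 and 0.58 ± 0.06, and Rpl10a, which carries the tag in many ribosome affinity purifications, by 0.45 ± 0.07 and 0.40 ± 0.07. Rpl11, which binds Mdm2 when assembly is disturbed, was near the low end with 0.25 ± 0.07 and 0.30 ± 0.07.

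The smallest CA1 difference among the 33 was that of Rpl7, a large subunit protein that contacts rRNA. Rpl7 read 8.68, 8.79 and 8.74 in the CA1 cell body layer, 8.85, 8.95 and 9.02 in the CA1 dendritic layer, 8.53, 8.57 and 8.46 in the CA2 cell body layer and 8.99, 8.98 and 8.90 in the CA2 dendritic layer. The dendritic arrays were the higher in each region, by 0.20 ± 0.07 in CA1 (adjusted p = 0.0321) and 0.44 ± 0.07 in CA2 (adjusted p = 0.00049), and the CA1 call was lost under 12 of 28 alternatives. The difference between regions, 0.23 ± 0.10, did not pass (adjusted p = 0.131).

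In the small subunit all 15 genes were called higher in CA1 and 14 of 15 in CA2, with medians of 0.51 and 0.56. Rps15, whose protein reaches the decoding site from the head of the subunit, read 11.85, 11.91 and 11.85 in the CA1 cell body layer, 12.59, 12.65 and 12.68 in the CA1 dendritic layer, 11.50, 11.54 and 11.48 in the CA2 cell body layer and 12.40, 12.41 and 12.37 in the CA2 dendritic layer. Its 4 groups did not overlap, with layer differences of 0.77 ± 0.06 (adjusted p = 3.2e-06) and 0.89 ± 0.06 (adjusted p = 1.1e-06). Rps20 was higher by 0.76 ± 0.07 and 0.60 ± 0.07, and Rps26, at the channel where the mRNA leaves, by 0.73 ± 0.07 and 0.79 ± 0.07. Rps19, the gene most often mutated in Diamond-Blackfan anaemia, was higher by 0.51 ± 0.06 in CA1 and 0.29 ± 0.06 in CA2. The Rps19 feature averaged 7.68 over the arrays. Features named as its copies, some of them brighter, ranged from 0.39 for Rps19-ps13 to 1.06 for Rps19-ps6 in CA1. In CA2 they ranged from 0.04 for Rps19-ps13 to 1.07 for Rps19-ps1. The exception among the 15 genes in CA2 was Rps14, whose loss of 1 copy underlies a form of myelodysplasia. Rps14 read 7.57, 7.75 and 7.63 in the CA2 cell body arrays and 7.76, 7.74 and 7.78 in the CA2 dendritic arrays, which overlap, and the difference of 0.11 ± 0.08 did not pass (adjusted p = 0.33). In CA1 it was higher by 0.29 ± 0.08 (adjusted p = 0.011).

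**Figure D2:**
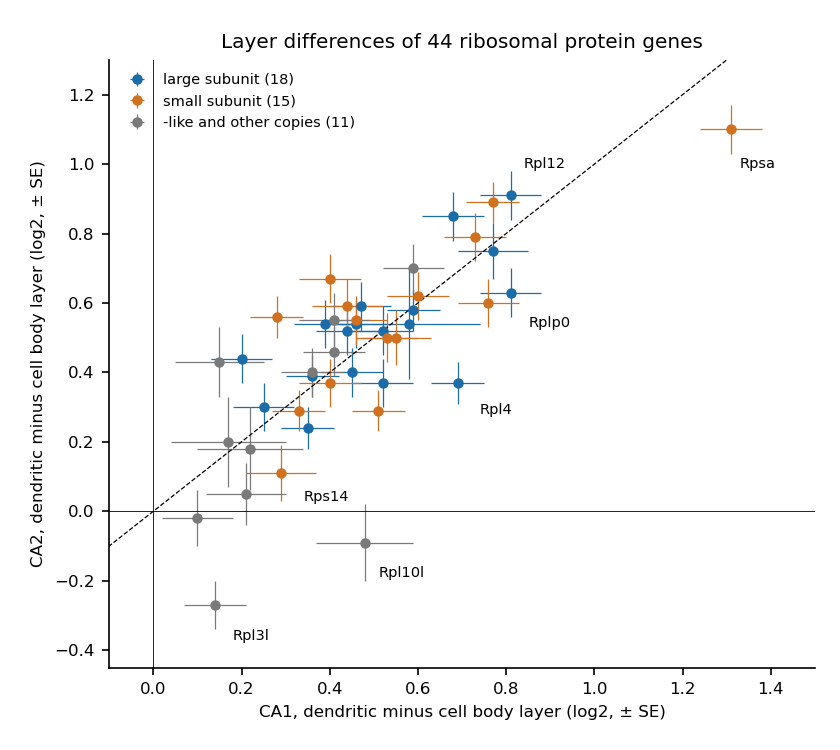
Layer difference in CA1 (horizontal) against that in CA2 (vertical), both in log2 with SE bars, for 18 large subunit genes, 15 small subunit genes and 11 copies; the dashed line marks equal differences. Rpsa lies at 1.31 and 1.10, Rpl4 below the line at 0.69 and 0.37, and Rpl10l and Rpl3l are copies with negative values in CA2.

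The size of the layer difference went with the gene. Across the 33 standard genes the CA1 and CA2 differences, which share no array, had a Pearson correlation of 0.776 and a Spearman correlation of 0.684, and 0.695 and 0.653 without Rpsa. These describe genes, which are not independent replicates and share probe design and level between regions. Without the 3 arrays with oocyte transcripts, which leaves 1 CA2 dendritic array that is assumed to vary like the others, all 33 CA2 differences were positive with a median of 0.54. Of these, 20 were then called higher in CA2, against 10.1% of all genes, and 32 in CA1, where Rpl7 was lost (adjusted p = 0.0524). The CA2 calls lost were those of Rplp0 (0.54, adjusted p = 0.0529), Rpl4, Rpl6, Rpl7a, Rpl10a, Rpl11, Rpl19, Rps7, Rps10, Rps18, Rps19 and Rps28.

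Layer differences were set against each other by region in a term for layer and region together, which 11.6% of all genes passed, 4.81% upward and 6.81% downward in CA2. Of the 44 members, 0 passed upward in limma (3 at an unadjusted p under 0.05) and 3 downward, and the median over the 33 standard genes was 0.00. The 1 standard gene was Rpl4, whose protein lines the exit tunnel with a long loop. Rpl4 read 11.60, 11.59 and 11.60 in the CA1 cell body layer, 12.29, 12.34 and 12.24 in the CA1 dendritic layer, 11.71, 11.73 and 11.66 in the CA2 cell body layer and 12.07, 12.08 and 12.07 in the CA2 dendritic layer. All dendritic arrays were above all cell body arrays, and the layer difference was 0.69 ± 0.06 in CA1 and 0.37 ± 0.06 in CA2, a difference between regions of -0.32 ± 0.08 (adjusted p = 0.0328) that was lost under 17 of 28 alternatives, the one without the 3 arrays with oocyte transcripts among them.

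At the other end were 3 small subunit genes whose larger CA2 difference did not pass. Rps24, another gene mutated in Diamond-Blackfan anaemia, read 8.76, 8.78 and 8.70 in the CA1 cell body layer, 9.02, 9.09 and 8.98 in the CA1 dendritic layer, 8.78, 8.65 and 8.70 in the CA2 cell body layer and 9.31, 9.24 and 9.25 in the CA2 dendritic layer. The cell body arrays overlapped and the CA2 dendritic arrays were highest, and the difference between regions was 0.27 ± 0.09 (adjusted p = 0.0733). Rps29, a zinc-binding protein of the subunit head, read 12.56, 12.59 and 12.46, then 12.81, 13.02 and 12.98 in CA1, and 12.11, 12.11 and 12.07, then 12.77, 12.79 and 12.74 in CA2, cell body arrays first. The CA2 cell body arrays were the lowest, and the difference between regions was 0.27 ± 0.10 (adjusted p = 0.0944). Rps27l, a copy induced by p53, read 8.28, 8.32 and 8.20 in the CA1 cell body layer, 8.41, 8.26 and 8.57 in the CA1 dendritic layer, 7.82, 7.92 and 7.93 in the CA2 cell body layer and 8.46, 8.28 and 8.21 in the CA2 dendritic layer. The layers overlapped in CA1 and not in CA2, with differences of 0.15 ± 0.10 (adjusted p = 0.224) and 0.43 ± 0.10 (adjusted p = 0.00506), and that between regions was 0.28 ± 0.13 (adjusted p = 0.184). Its CA2 call was lost (0.53, adjusted p = 0.0787) when the 3 arrays with oocyte transcripts were left out.

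Between regions, more standard genes were called lower than higher in CA2 against CA1, in both layers. In the cell body layer 12 of 18 large and 4 of 15 small subunit genes were called lower in CA2 and 0 of the 33 higher in limma (also 0 at an unadjusted p under 0.05), with medians of -0.23 and 0.01. In the dendritic layer 10 of 18 large and 4 of 15 small subunit genes were called lower and 0 and 2 higher, with medians of -0.21 and -0.12. Over all genes 10.5% were called lower and 10.6% higher in the cell body layer, and 18.6% and 11.6% in the dendritic layer. Among the 233 genes of the brightest 1% without a ribosomal protein symbol, 29.6% and 20.6% were called lower. Cell type markers also differed between regions. In the cell body layer 8 of 11 oligodendrocyte, 6 of 12 endothelial and 5 of 14 astrocyte markers were higher in CA2 and 2 astrocyte markers lower, 1 of 13 microglia markers was lower, and of 9 pyramidal markers 2 were higher and 2 lower. In the dendritic layer 11 of 13 microglia and 5 of 9 pyramidal markers were lower in CA2 and 1 pyramidal marker higher, while 8 of 12 endothelial and 6 of 11 oligodendrocyte markers were higher, and of 14 astrocyte markers 3 were higher and 2 lower. The part of these cells in the differences was not tested. The difference between the subunits was not tested, and the region cannot be told apart from the run. With those 3 CA2 arrays left out, 10 of the 33 were called lower in CA2 in the cell body layer (6 of 18 large and 4 of 15 small subunit genes) and 2 in the dendritic layer (1 of 18 and 1 of 15), where 8.09% and 2.96% of all genes were, with medians of -0.23 and -0.14 over the 33. With only the groups compared in the fit, 7 of 44 members were called lower in the dendritic layer, and 18 with all groups. Without 1 array, or without all arrays of 1 replicate number, the count of 44 ranged from 10 to 20 in the cell body layer and from 7 to 16 in the dendritic layer. The shares of all genes called lower under these settings are not given here. Whether the changes in count are particular to the members was not tested.

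On the feature kept for it, Rpl35 was lower in CA2 by -0.54 ± 0.07 in the cell body layer (adjusted p = 0.00036) and -0.37 ± 0.07 in the dendritic layer (adjusted p = 0.00392). On a feature coded to the chromosome of the gene the values were -0.34 and -0.17, of which the dendritic one did not pass (adjusted p = 0.103 over every feature), and that call was also lost (adjusted p = 0.148) when the 3 arrays with oocyte transcripts were left out. Rpsa was lower in CA2 in both layers, by -0.51 ± 0.07 (adjusted p = 0.00046) and -0.71 ± 0.07 (adjusted p = 0.00013). Rpl19, a protein of a bridge between the subunits, was at -0.46 ± 0.06 and -0.43 ± 0.06, Rpl7a at -0.43 ± 0.07 and -0.58 ± 0.07, and Rps10, which is tagged with ubiquitin on collided ribosomes, at -0.42 ± 0.08 and -0.47 ± 0.08, all called in both layers. Without the 3 arrays with oocyte transcripts the dendritic calls of Rpl19 and Rps10 were lost (-0.44 and -0.56, adjusted p = 0.0594 and 0.0545), and that of Rpl7a held (-0.55, adjusted p = 0.0453). Rpl38, Rps9, Rps7, Rps26 and Rps28, by contrast, lay between -0.06 and 0.06 in both layers and did not pass. The genes higher in CA2 in the dendritic layer were Rps24 at 0.24 ± 0.06 (adjusted p = 0.0198) and Rps4x at 0.27 ± 0.08 (adjusted p = 0.0274), the X-linked form of its protein. Rps4x read 10.75, 10.91 and 10.82 in the CA1 dendritic arrays and 11.19, 10.98 and 11.12 in the CA2 dendritic arrays, which do not overlap, and 10.35, 10.45 and 10.35 in the CA1 and 10.56, 10.49 and 10.47 in the CA2 cell body arrays. Both calls were lost under 10 of 28 alternatives, including the one without the 3 arrays with oocyte transcripts. Rps24-ps2 and Rps24-ps3, features named as copies of Rps24, were at -0.14 and -0.05 in the dendritic layer and did not pass.

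**Figure D3:**
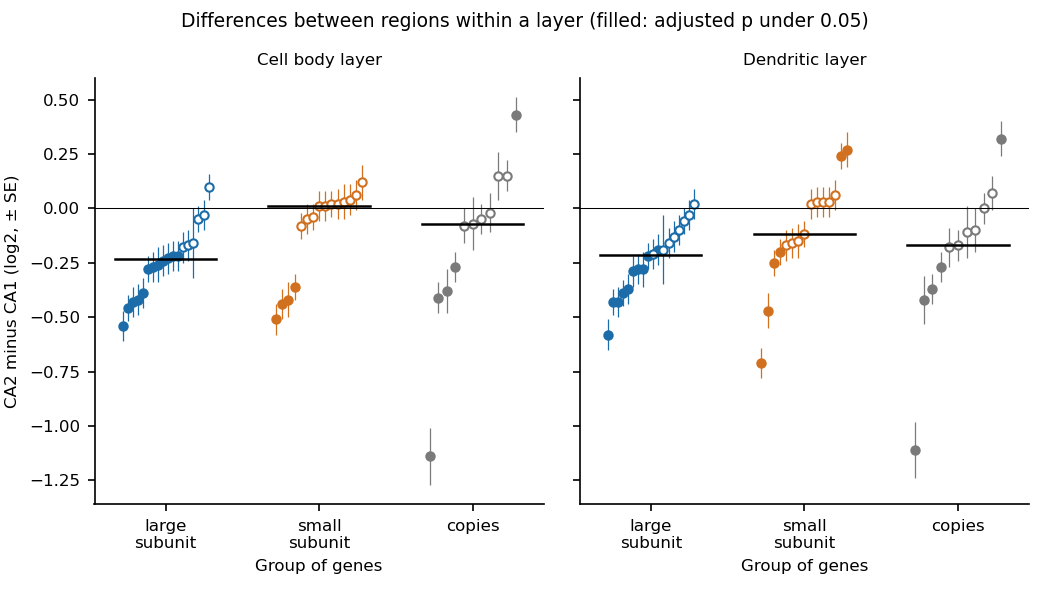
CA2 minus CA1 in log2, with SE bars, in the cell body layer (left) and the dendritic layer (right) for large subunit genes, small subunit genes and copies, ordered by value; filled points have an adjusted p under 0.05 and the black line is the median. The median of the large subunit is -0.23 in the cell body layer and -0.21 in the dendritic layer, and the lowest point in each panel is Rpl22l1.

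Between layers, a smaller part of the 11 copies passed than of the 33 standard genes. In CA1, 5 of 11 were called higher, and in CA2 5 higher and 1 lower, with medians of 0.22 and 0.20. Over all genes 28.3% were called higher in CA1, and 16.2% higher and 17.8% lower in CA2. Under median centring the medians of the copies were 0.07 in CA1, where 3 of 11 were negative, and 0.15 in CA2. Without the 3 arrays with oocyte transcripts the CA2 median was 0.47, with 4 called higher, and Rpl3l was no longer called lower (adjusted p = 0.178). Region and run took up 50% of the sum of squares of the copies and layer 35.1%, where the 33 standard genes had 16.3% and 79%. Among the copies Rpl22l1 differed most between regions, by -1.14 and -1.11, against at most 0.43 in size for any other. The shares without Rpl22l1 were not computed. The copies called in CA1 were Rpl32l, Rpl10l, Rpl6l, Rps3a2 and Rps3a3, and in CA2 Rpl32l, Rpl6l, Rps27l, Rps3a2 and Rps3a3. Without the 3 arrays the CA2 calls were those of Rpl32l, Rpl22l1, Rps3a2 and Rps3a3. Rpl32l, named for Rpl32, was higher by 0.59 ± 0.07 and 0.70 ± 0.07. Rps23rg1, a retroposed copy of Rps23, differed by 0.22 ± 0.12 and 0.18 ± 0.12 and did not pass in either region (adjusted p = 0.147 and 0.301).

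Rpl22l1 showed the largest difference between regions of any member. Its protein can take the place of Rpl22 in the ribosome, and Rpl22 is known to hold Rpl22l1 expression down. Rpl22l1 read 10.46, 10.72 and 10.63 in the CA1 cell body layer, 10.45, 11.06 and 10.82 in the CA1 dendritic layer, 9.52, 9.45 and 9.42 in the CA2 cell body layer and 9.81, 9.55 and 9.64 in the CA2 dendritic layer. All 6 CA1 arrays were above all 6 CA2 arrays, and the layers of a region overlapped in CA1 and not in CA2. CA2 was below CA1 by -1.14 ± 0.13 in the cell body layer (adjusted p = 0.00022) and -1.11 ± 0.13 in the dendritic layer (adjusted p = 0.0004), while the layer differences of 0.17 ± 0.13 and 0.20 ± 0.13 did not pass (adjusted p = 0.304 and 0.307). Without the 3 arrays with oocyte transcripts the CA2 layer difference of Rpl22l1 was 0.73 ± 0.16 and was called (adjusted p = 0.0197), and CA2 was below CA1 by -1.29 ± 0.10 in the cell body layer (adjusted p = 0.00045) and -0.73 ± 0.14 in the dendritic layer (adjusted p = 0.0304). Rpl22 read 8.66, 8.70 and 8.64 in the CA1 cell body layer, 9.03, 9.23 and 9.13 in the CA1 dendritic layer, 8.29, 8.55 and 8.36 in the CA2 cell body layer and 8.89, 8.96 and 8.96 in the CA2 dendritic layer. It was higher in the dendritic layer by 0.46 ± 0.07 and 0.54 ± 0.07, and lower in CA2 by -0.27 ± 0.07 (adjusted p = 0.0158) and -0.19 ± 0.07 (adjusted p = 0.0496), so both paralogs pointed the same way between regions. The dendritic call of Rpl22 was lost under 21 of 28 alternatives. Its cell body call was lost under 8, among them the one without the 3 arrays with oocyte transcripts (-0.24). Both region calls of Rpl22l1 held under every alternative that tested it, which the one without the copies did not.

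**Figure D4:**
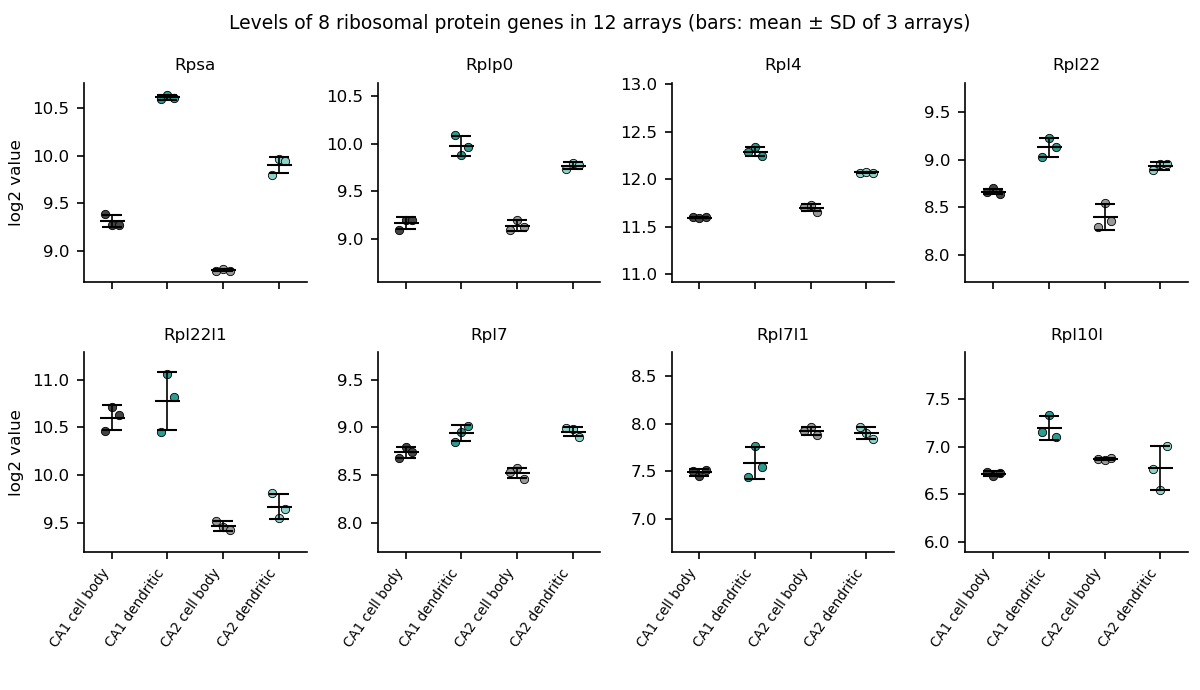
Log2 values of Rpsa, Rplp0, Rpl4, Rpl22, Rpl22l1, Rpl7, Rpl7l1 and Rpl10l in the 12 arrays, by layer and region, with the mean and SD of 3 arrays; the vertical axes span the same log2 range but start at different levels. Rpsa and Rplp0 are separated by layer, Rpl22l1 by region (10.45 to 11.06 in CA1, 9.42 to 9.81 in CA2) and Rpl7l1 in the opposite direction.

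Rpl7l1, a nucleolar relative of Rpl7 linked to rRNA processing, went the other way between regions. Rpl7l1 read 7.50, 7.45 and 7.51 in the CA1 cell body layer, 7.44, 7.77 and 7.54 in the CA1 dendritic layer, 7.92, 7.96 and 7.88 in the CA2 cell body layer and 7.96, 7.90 and 7.84 in the CA2 dendritic layer. All CA2 arrays were above all CA1 arrays and the layers overlapped in both regions. It was higher in CA2 by 0.43 ± 0.08 in the cell body layer (adjusted p = 0.00391) and 0.32 ± 0.08 in the dendritic layer (adjusted p = 0.0179), the only member called higher there in the cell body layer. The dendritic call was lost under 6 of 28 alternatives, among them the one that leaves out the 3 arrays with oocyte transcripts (0.44 at an adjusted p of 0.108). Layer differences were 0.10 ± 0.08 and -0.02 ± 0.08 (adjusted p = 0.346 and 0.893). Rpl7 itself was lower in CA2 by -0.22 ± 0.07 in the cell body layer (adjusted p = 0.0466), a call lost under 15 of 28 alternatives, among them the one without those arrays (adjusted p = 0.0846), and was at 0.02 ± 0.07 in the dendritic layer.

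Rpl10l and Rpl3l, known from testis and from heart and muscle, were the copies with a passing difference between the layer differences, and both were dim. Rpl10l read 6.74, 6.69 and 6.73 in the CA1 cell body layer, 7.16, 7.34 and 7.10 in the CA1 dendritic layer, 6.87, 6.86 and 6.88 in the CA2 cell body layer and 6.77, 6.55 and 7.01 in the CA2 dendritic layer. Its layers were apart in CA1 and overlapped in CA2, with differences of 0.48 ± 0.11 (adjusted p = 0.00441) and -0.09 ± 0.11 (adjusted p = 0.585), and the difference between regions was -0.57 ± 0.15 (adjusted p = 0.0385). Rpl3l read 5.84, 5.84 and 5.80, then 6.10, 5.97 and 5.84 in CA1, and 6.01, 6.02 and 5.90, then 5.76, 5.61 and 5.74 in CA2, cell body arrays first. It was the only member called lower in a dendritic layer, by -0.27 ± 0.07 in CA2 (adjusted p = 0.0132), against 0.14 ± 0.07 in CA1 (adjusted p = 0.126) and -0.42 ± 0.10 between regions (adjusted p = 0.0289). Both calls between regions were lost without the 3 arrays with oocyte transcripts, and Rpl10l and Rpl3l, with Rpl39l, were the 3 members whose mean over arrays was below 7.25, the 95th percentile of 92 external control RNA features.

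Copies with a measured parent allowed a comparison within pairs. Rpl39l, a testis paralog of the tunnel protein Rpl39, read 4.37, 4.46 and 4.47, then 4.75, 4.57 and 4.62 in CA1, and 4.59, 4.35 and 4.31, then 4.43, 4.54 and 4.43 in CA2, cell body arrays first. Its mean was below 5.76, the median of all features, and its layer differences of 0.21 ± 0.09 and 0.05 ± 0.09 did not pass (adjusted p = 0.0632 and 0.726). Rpl39 read 9.16, 9.23 and 9.29, then 9.73, 9.63 and 9.74 in CA1, and 9.07, 8.97 and 8.97, then 9.64, 9.52 and 9.63 in CA2, in the same order. Its dendritic arrays were apart from the cell body arrays in both regions, with differences of 0.47 ± 0.07 (adjusted p = 0.0002) and 0.59 ± 0.07 (adjusted p = 4.5e-05).

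The remaining pairs moved alike in copy and parent. Rpl6, a large subunit protein, read 7.87, 7.90 and 7.91, then 8.16, 8.27 and 8.29 in CA1, and 7.64, 7.61 and 7.58, then 7.86, 7.84 and 7.84 in CA2, cell body arrays first. Rpl6l, its pseudogene copy, read 9.78, 9.88 and 9.98, then 10.24, 10.26 and 10.21 in CA1, and 9.47, 9.50 and 9.43, then 9.86, 9.82 and 9.91 in CA2. Layers were apart in both genes and regions, by 0.35 ± 0.06 and 0.24 ± 0.06 in Rpl6 and 0.36 ± 0.07 and 0.40 ± 0.07 in Rpl6l. Rps3a1, at the channel where the mRNA leaves, read 11.73, 11.79 and 11.69, then 12.09, 12.16 and 12.15 in CA1, and 11.82, 11.78 and 11.73, then 12.22, 12.07 and 12.16 in CA2. Rps3a2 read 11.89, 11.93 and 11.82, then 12.23, 12.31 and 12.32 in CA1, and 11.88, 11.78 and 11.83, then 12.36, 12.20 and 12.31 in CA2. Rps3a3 read 11.59, 11.76 and 11.64, then 12.01, 12.16 and 12.05 in CA1, and 11.69, 11.56 and 11.51, then 12.19, 12.07 and 12.16 in CA2. Each of these dendritic groups was above its cell body group, with differences between 0.37 and 0.55. Under quantile normalization Rps3a1 was at 0.03 in CA1 and -0.01 in CA2 and was not called. Between regions, 0 of the 3 genes was called by limma in either layer, also at an unadjusted p under 0.05.

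Features can read more than 1 locus, since ribosomal protein genes have many near-identical copies. The feature code of 6 of 44 members (13.6%) names another chromosome than RefSeq gives for the gene, namely Rpl12, Rpl27, Rpl31, Rpl35, Rpl41 and Rpl7a, against 0.316% of 30096 features. For 4 of these a dimmer feature on the chromosome of the gene exists, and all 4 gave smaller layer differences there: Rpl27 0.31 and 0.25, Rpl35 0.42 and 0.59, Rpl7a 0.35 and 0.32, and Rpl41 0.21 and 0.19, in CA1 and CA2. With p-values adjusted over every feature, Rpl41 did not pass on that feature (adjusted p = 0.0533 and 0.0902), while the feature kept for it differed by 0.39 and 0.54. Of 206 genes named as ribosomal protein pseudogenes, 194 were called higher in the CA1 dendritic layer and 183 in CA2, with medians of 0.64 and 0.76. Some of these, such as Rpl35a-ps3, Rpl35a-ps4 and Rpl35a-ps6, read the same to 2 decimals in every array. The counts therefore hold some signals more than once. Over all genes 28.3% were called higher in CA1 and 16.2% in CA2. The fit of every feature held 52 features with several symbols that include a standard gene, such as those of Rplp1, Rplp2 and Rps6. Of these, 45 were called higher and 1 lower in CA1 and 47 and 1 in CA2, with medians of 0.52 and 0.55.

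Genes of related roles differed in direction. Fau, which is made as a fusion with a ubiquitin-like protein and yields a small subunit protein, was higher in the dendritic layer by 0.62 in CA1 and 0.57 in CA2. Of 17 other mRNAs with a TOP tract, 8 were called higher and 3 lower in CA1 and 9 and 2 in CA2. Their medians were 0.14 and 0.20, with the elongation factor Eef2 at the top with 1.45 and 1.02. Of 75 mitochondrial ribosomal protein genes, 48 were called lower and 1 higher in CA1 and 46 and 3 in CA2, with medians of -0.31 and -0.35. Of 38 ribosome assembly and rRNA processing factors, 28 were lower and 1 higher in CA1 and 20 and 1 in CA2, with medians of -0.43 and -0.33, and Nop53 was the higher one in both. RNA polymerase I and its factors were called lower in 7 of 11 in CA1 and 5 of 11 in CA2. Over all genes 28.3% were called higher and 18.5% lower in CA1, and 16.2% higher and 17.8% lower in CA2. Lower calls were more common in the brightest 20%, with 46.6% between the CA1 layers and 41.1% between the CA2 layers. Higher calls made up 27.1% and 27.9% there. How many genes of each list belong to this brightest part is not given here. Of 14 regulators of TOP mRNAs, 3 were higher and 6 lower in CA1 and 2 and 4 in CA2, with Eif4ebp2 highest at 0.96 and 0.55. These lists were chosen with results of these data known, and their difference from the ribosomal protein genes was not tested.

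**Figure D5:**
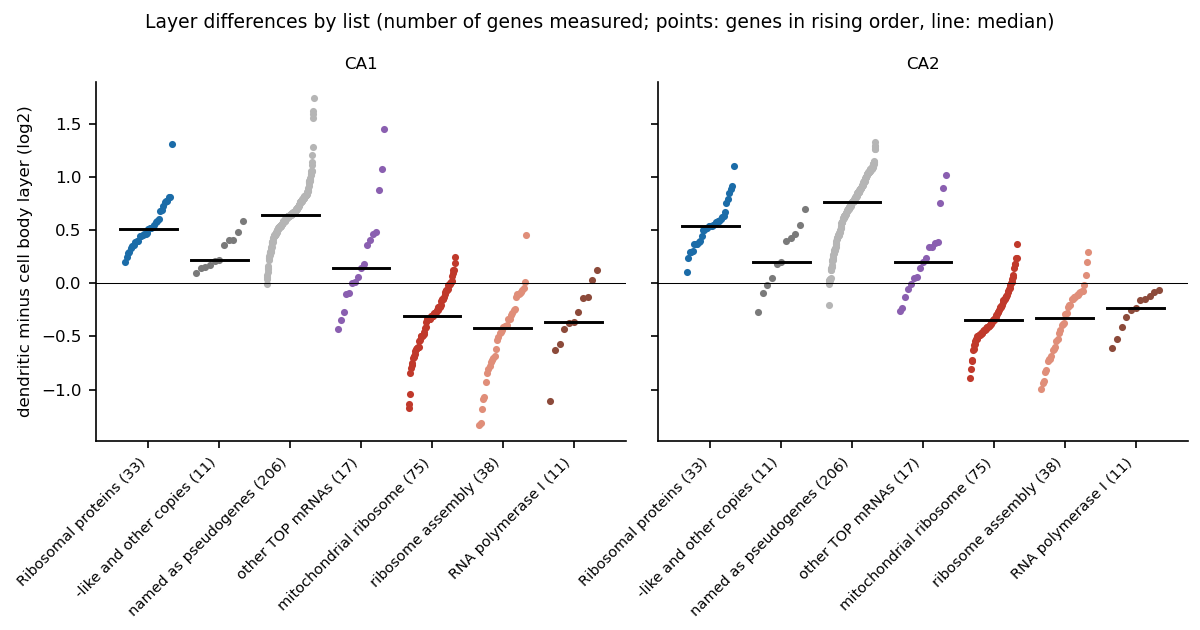
Layer difference in log2 of each gene in CA1 (left) and CA2 (right) for the ribosomal protein genes, their copies, genes named as ribosomal protein pseudogenes and 4 lists of related roles; points are genes in rising order and the black line is the median. The medians are 0.51 and 0.54 for the 33 ribosomal protein genes and -0.31 and -0.35 for the 75 mitochondrial ones.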

How the data were processed

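RNA of 12 laser-captured samples was amplified and hybridised to Affymetrix whole-transcript arrays, per the labels' protocols. The authors deposited log2 values made by RMA, per the submitters' processing notes, which as given name no software version or build. RMA leaves no detection call, and the number of arrays limits precision. Of 72688 features, 30604 carried 1 symbol in the platform annotation, 2146 several and 39938 none; these gave 30142 genes, with the brightest feature kept for the 355 genes with more than 1. Genes were tested in limma 3.58.1 (R 4.3.3; lmFit and eBayes, two-sided, tested on simulated data), in 1 fit of 12 arrays, with a mean for each of 4 groups and a block for the replicate number, Benjamini-Hochberg adjusted over all genes and called under 0.05. Group SDs and SEs are in log2. No filter or pseudocount was used. No 2 arrays held the same values. The members and lists were chosen with earlier results of these data known. Members named with values were Rpsa, Rplp0, Rpl22, each copy and its parent, and those with the largest and smallest differences in a comparison; other genes are examples by role, picked with their values known. Further settings, 28 in all, are in the closing section.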

Additional observations from a re-analysis of the deposited data

Results flagged for a closer look

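The layer difference of 3 members differed between the regions by the test of that difference (dendritic minus cell body layer in CA2, minus the same in CA1, log2): Rpl10l by -0.57, Rpl3l by -0.42 and Rpl4 by -0.32. In Rpl10l and Rpl3l the CA1 and CA2 layer differences had opposite signs (0.48 and -0.09, 0.14 and -0.27), whereas in Rpl4 both were positive (0.69 and 0.37). These were 3 of 44 members, and over all genes 6.81% were called downward in this test. The calls of Rpl10l, Rpl3l and Rpl4 were lost under 16, 17 and 17 of the alternatives. Among these was the one without the 3 arrays with oocyte transcripts. With 3 arrays a group, single arrays were not tested for lying apart.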

How the results depend on the processing

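Each result was set against 28 alternatives, 25 planned and 3 added after seeing the data (the feature on the chromosome of the gene, no copies, the brightest 20% of genes). The one without copies is the main fit with these genes taken out, so calls of standard genes could not change there. The brightest 20% held 34 of 44 members. Of 121 called gene differences, 59 held under every alternative that tested the gene. These were 26 between the CA1 layers, 19 between the CA2 layers, 0 between layer differences, 11 between regions in the cell body layer and 3 in the dendritic layer. Reversed were Rpl4 and Rps3a1 between the CA2 layers under quantile normalization (both -0.01, adjusted p = 0.964 and 0.901). Without the arrays with oocyte transcripts, a fit with fewer arrays, 24 members were higher and 0 lower between the CA2 layers, 0 were called down between layer differences, and between regions 13 were lower in the cell body layer and 0 higher and 3 lower in the dendritic layer. Without the copies and in the brightest 20%, with fewer members tested, 0 were lower between the CA2 layers, 1 was called down between layer differences and 0 were higher between regions in the cell body layer. For the difference between layer differences, 1 was called up without the replicate block, under median centring and with a trended robust prior, and 2 in the brightest 20%; 0 were called down under median centring and with every feature tested and 1 under quantile normalization. Between regions, 2 were higher in the cell body layer under quantile normalization, 1 in the dendritic layer under quantile normalization and array weights, and 0 higher and 7 lower there with only the groups compared. The cause of these changes was not tested, and for most alternatives the share of all genes called is not given here. Leaving out 1 array, or all arrays of 1 replicate number (15 settings), gave 34 to 39 higher between the CA1 layers and 33 to 37 higher and 0 to 1 lower between the CA2 layers. It gave 0 to 3 down between layer differences, 1 higher and 10 to 20 lower between regions in the cell body layer and 0 to 3 higher and 7 to 16 lower in the dendritic layer. Arrays that share a replicate number did not visibly deviate together (1 of 18 pairs above 0.1, correlations from -0.346 to 0.132). Among pairs with different numbers, 6 of 36 were above 0.1 (from -0.134 to 0.251). With 3 arrays a group, low correlations cannot show whether arrays with the same number come from the same mouse. Whether they do was not tested. Without the replicate block 39 members were higher between the CA1 layers and 37 higher and 1 lower between the CA2 layers.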

Other observations

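Among mitochondrial ribosomal protein genes, 28 of 75 were called higher and 6 lower in the CA2 than in the CA1 dendritic layer. Over all genes 11.6% were called higher and 18.6% lower there, and in the brightest 20% of genes 30.2% and 19.7%. Region cannot be told apart from run. The 92 external control RNAs averaged 5.20 in the CA1 cell body, 5.33 in the CA1 dendritic, 5.28 in the CA2 cell body and 5.24 in the CA2 dendritic layer.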
